A study of Mus musculus with 111 samples.

Results

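The mutant histone H3.3 Q5A, delivered by virus to the mouse tuberomammillary nucleus (TMN), was compared between lights on and lights off across all genes. The comparison takes 13 of the 111 RNA-seq libraries of the series: all 6 Q5A libraries of zeitgeber time (ZT) 0 and all 7 Q5A libraries of ZT12, as labelled. ZT0 is the start of the light phase, when mice become inactive, and ZT12 is the start of the dark phase, when they become active. In Q5A, the glutamine at position 5 of H3.3 is replaced by alanine, so that this residue of the viral histone cannot be monoaminylated. All animals were C57BL/6 mice by the labels and C57BL/6J by the methods, male and female, bought at 8 to 10 weeks of age, with no deleted gene named, and they kept their own histone genes. An adeno-associated virus carrying H3.3 Q5A and an IRES-GFP cassette was injected into the TMN, and GFP-lit tissue was later cut from brain sections. The promoter of the virus is not given in the sources used here, and the cut tissue held all cell types under the GFP glow, not sorted neurons. The 22 libraries that serve for comparison came from the same procedure with a GFP virus or a wild-type H3.3 virus, 9 at ZT0 and 13 at ZT12, and are called control viruses below. They are pooled here as in the study, which reported more genes differing between GFP and H3.3 at ZT12 than at any other time. Each library is 1 mouse, and the labels place the mice in 3 cohorts: ZT0 held 4 of cohort 1 and 2 of cohort 2, and ZT12 held 5 of cohort 1, 1 of cohort 2 and 1 of cohort 3. The labels do not say what separates the cohorts.

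The TMN is the hypothalamic nucleus whose neurons make histamine with histidine decarboxylase, the product of Hdc, and histamine release promotes wakefulness. The circadian clock is a feedback loop in which CLOCK and BMAL1 bind E-boxes and drive the Per and Cry genes, whose proteins then repress them, and also drive output genes such as Dbp, Tef and the Nr1d1 repressor. In rodent tissues Dbp mRNA is a strong marker of clock time. Donor amines such as serotonin and histamine can be joined to glutamine 5 of histone H3 by the enzyme TG2, the product of Tgm2.

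Values are reads counted per gene row, given as CPM, the count scaled to a common total of reads in gene rows, after TMM scaling, and changes are log2 of ZT12 over ZT0 from edgeR, with its standard error (SE) and a p adjusted over all rows tested by the Benjamini-Hochberg method. A row is called where that adjusted p is under 0.05. The kit keeps the strand of the RNA, and the deposited rows hold only 3.70% to 5.39% of the uniquely placed reads of the 13 libraries. Of the reads in rows that could be placed on the annotation, 78.9% fell in rows that share exonic bases with a gene on the other strand, although only 19.9% of the rows do. The row of Parpbp, which lies opposite the melanin-concentrating hormone gene Pmch, held far more reads than the Pmch row, which had 0.218 to 3.49 reads for every 100 in the Parpbp row. Whether the reads of such a row come from its own gene or from the opposite gene was not tested. The opposite gene is therefore named beside each row below. What part of a gene's reads a row with no opposite gene holds was also not tested.

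The libraries held 1394242 to 1844695 reads in gene rows at ZT0 (n = 6) and 725381 to 1905142 at ZT12 (n = 7). The mean difference, ZT12 minus ZT0, was −251907 reads, with an exact 2-sided permutation p of 0.146. A pair of ZT12 libraries stood apart. In ZT12 cohort 2 replicate 1, 61.2% of placed reads fell in rows with an opposite exon, against 77.5% to 84.4% in the other 12, and its median correlation with its group was 0.846. ZT12 cohort 3 replicate 1 was the shallowest library and had the most Parpbp reads, 49924 CPM. Values without 1 or both of them are given beside results that they move.

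**Figure D1:**
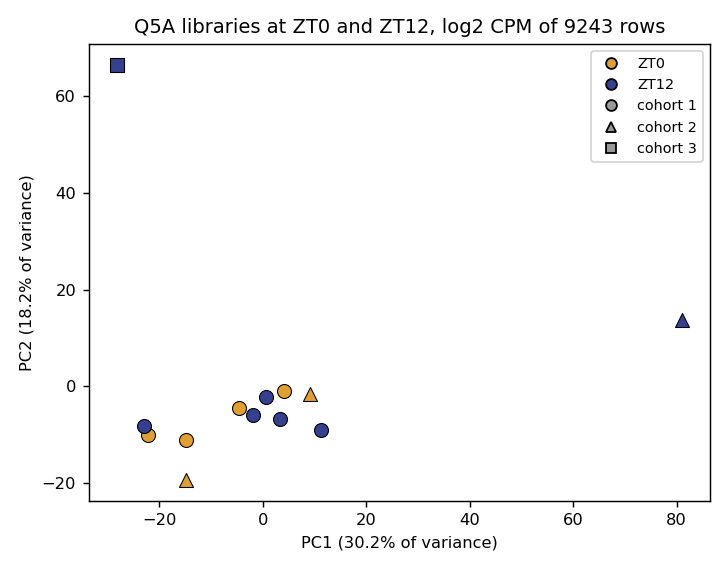
Principal components of log2 CPM over the 9243 rows tested, one point per Q5A library, orange for ZT0 and blue for ZT12 and marker shape for cohort. PC1 (30.2% of variance) is led by ZT12 cohort 2 replicate 1 at 81.1 and PC2 (18.2%) by ZT12 cohort 3 replicate 1 at 66.6, and time does not divide the other points.

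Across the 13 libraries no row was called as different between ZT0 and ZT12: 0 of 9243 rows tested (0%), with the smallest adjusted p at 0.0963. By unadjusted p under 0.05, 369 rows (3.99%) were higher at ZT12 and 235 rows (2.54%) were lower, and without the pair of libraries that stood apart 252 were higher and 253 lower. DESeq2 called 2 rows, and edgeR without the pair of libraries that stood apart called 0. The rows DESeq2 called were RP23-140P6.4 and RP24-176P19.3, which are clone names that could not be placed on the annotation. The rows of smallest p in each direction are described here although none passed the edgeR threshold. Groups did not overlap in 6 rows with ZT12 above (0.0649% of rows tested) and in 14 rows with ZT12 below (0.151%).

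RP23-140P6.4 had the smallest p. Its 6 ZT0 libraries lay between 10.4 and 23.2 CPM (median 16.3) and its 7 ZT12 libraries between 31.9 and 63.9 (median 37.0). No ZT12 library reached down to the ZT0 range, and the change was 1.39 (SE 0.25, edgeR adjusted p = 0.0963). In cohort 1 alone it was 1.31 (adjusted p = 0.0211), and under the control viruses 0.08 (SE 0.38), with medians of 25.3 and 22.8 CPM.

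Further rows of smallest p with higher values at ZT12 were Dbp, given below, and 7 more with edgeR changes of 0.76 to 1.06, all at an adjusted p of 0.724. They were Gas7 (0.90), a growth arrest gene opposite Glp2r, Arhgef26 (0.76), opposite 9330121J05Rik, and Hpca (0.83), the neuronal calcium sensor hippocalcin, opposite Tmem54. The rest were Cnbp (0.96), a nucleic acid binding protein, Fbxo38 (1.06), an F-box protein, Sfswap (1.06), a splicing regulator, and Txn2 (1.03), the mitochondrial thioredoxin. The groups of each of these 7 rows overlapped. Other rows whose groups did not overlap with ZT12 above were Tbc1d22b, Phc1 and Tomm20, named after their values were seen, with changes of 0.87, 0.81 and 0.77 (adjusted p = 0.724). The highest ZT0 and lowest ZT12 values lay close, at 7.51 and 7.57 CPM for Tbc1d22b, 11.39 and 11.48 for Phc1 and 17.7 and 18.5 for Tomm20. Under the control viruses these rows changed by 0.05, −0.14 and 0.46. Tomm20, a mitochondrial import receptor gene, was at 0.33 without ZT12 cohort 2 replicate 1, which held its highest value. The Tbc1d22b row lies opposite Tmem217.

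Among rows with lower values at ZT12, RP24-176P19.3 spanned 36.9 to 285 CPM at ZT0 (median 96.7) and 21.7 to 71.7 at ZT12 (median 40.1), a change of −1.74 (SE 0.37, edgeR adjusted p = 0.431). Zmym1, a zinc finger gene opposite Gm12940, spanned 142 to 468 CPM at ZT0 (median 324) and 119 to 194 at ZT12 (median 190). The 5 cohort 1 libraries of Zmym1 at ZT12 lay within 182 to 194 CPM, below all 4 cohort 1 libraries of ZT0, while the lowest ZT0 value, 142, came from cohort 2. The change of Zmym1 was −0.87 (SE 0.22, edgeR adjusted p = 0.724) over the 13 libraries.

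Slc26a1, a sulfate transporter row opposite the lysosomal enzyme gene Idua, was at 44.0 to 57.1 CPM at ZT0 (median 47.5) and at 22.2 to 42.1 at ZT12 (median 25.2). Its groups did not overlap, and the change was −0.72 (SE 0.20, edgeR adjusted p = 0.724), beside −0.44 under the control viruses. Adcy7, an adenylyl cyclase, was likewise separated, at 59.5 to 74.3 against 34.4 to 54.7 CPM, with changes of −0.60 in Q5A and −0.53 under the control viruses. The other 6 rows of this group were Gpr137b-ps (−1.66), Cdr1 (−0.87, opposite C230004F18Rik), Krtcap3 (−1.03), Col20a1 (−1.30), RP24-273I13.1 (−0.73) and Gm26858 (−0.80, opposite Wiz), each at an adjusted p of 0.724. Cdr1 overlapped between the groups, with 73.9 to 181 CPM at ZT0 and 38.3 to 95.0 at ZT12.

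Dbp, the clock output transcription factor chosen as the marker of time, was higher at ZT12 than at ZT0 in CPM, with no overlap between the groups. Its row lies at chr7:45705088-45710203 on the plus strand (GRCm38) and overlaps Sphk2, a sphingosine kinase gene, at its 3′ end. The ZT0 libraries held 15.8 to 22.3 CPM (median 19.8, n = 6) and the ZT12 libraries 22.7 to 38.3 CPM (median 31.3, n = 7). Before scaling these were 21 to 40 and 21 to 81 reads, ranges that overlap. The difference in mean log2 CPM was 0.68 (exact 2-sided permutation p = 0.00117, 0.00233 after adjustment over Dbp and Hdc), and the edgeR change was 0.73 (SE 0.20, adjusted p = 0.724 over all rows). Within cohort 1 the difference was 0.63 (exact permutation p = 0.0159), and without the pair of libraries that stood apart it was 0.65 (exact permutation p = 0.00216). Under the control viruses the Dbp row changed by 0.76 (SE 0.18, edgeR adjusted p = 0.0597). The difference between the Q5A and control changes was −0.04 (SE 0.25), which leaves room for a difference of either sign.

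The Sphk2 row (chr7:45709467-45718002, minus strand) shares exons with Dbp and Rpl18 on the other strand. It held 454 to 689 CPM at ZT0 (median 513) and 417 to 1073 CPM at ZT12 (median 896). The 1 low ZT12 value, 417, came from cohort 2 replicate 1, the library with the lowest share of reads in opposite-strand rows, and the other ZT12 libraries held 666 to 1073. The change was 0.62 over the 13 libraries (SE 0.20, edgeR adjusted p = 0.724), 0.63 in cohort 1 (SE 0.13, adjusted p = 0.0243) and 0.88 under the control viruses (SE 0.17, adjusted p = 0.0182). The row was thus called in cohort 1 of Q5A and in the controls. With each Q5A cohort 1 library left out in turn it was called in 3 of 9 fits. Over the 22 control libraries no row was called without H3.3 ZT0 cohort 2 replicate 1. The difference between the Q5A and control changes of Sphk2 was −0.27 (SE 0.28) over all 35 libraries.

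Tef, a transcription factor related to Dbp (opposite Gm17597), stood at 16.5 to 43.3 CPM at ZT0 (median 27.3) and 29.4 to 71.2 at ZT12 (median 41.4). Its groups overlapped, with the highest value again in ZT12 cohort 2 replicate 1, and the change was 0.63 (SE 0.24, edgeR adjusted p = 0.724), or 0.45 without that library. Per1, a repressor of the clock loop, held 6.09 to 9.24 CPM at ZT0 (median 8.15) and 6.49 to 20.1 at ZT12 (median 11.8). In Per1 3 of 7 ZT12 libraries lay inside the ZT0 range, and the highest, 20.1, was cohort 2 replicate 1. Its change was 0.58 in Q5A (SE 0.30, adjusted p = 0.724), 0.35 without that library, and 1.24 under the control viruses (SE 0.30, adjusted p = 0.0597). The difference of the Per1 changes was −0.68 (SE 0.42, unadjusted p = 0.115, edgeR adjusted p = 0.9997), so it was not larger than the spread.

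The stretch around the start sites of Dbp, Tef and Per1 was searched for the E-box, CACGTG, the letters that CLOCK and BMAL1 bind. Each sequence is 300 bases from RefSeq (GRCm38.p6), 250 before and 50 after a start site, with any E-box in capitals. It is its own reverse complement, so both strands are covered, and 2349 of 32851 promoters of this length (7.15%) hold it. The window at Dbp (chr7:45704997-45705296, plus strand) has none. Both windows of Tef hold 1, of which the second (chr15:81811164-81811463, plus strand), with the E-box 138 bases before the start, is shown. Of the 2 windows of Per1, the first (chr11:69098699-69098998, plus strand) has 1 at 166 bases before the start and is shown, and the second (chr11:69099902-69100201, plus strand) has none.
Dbp: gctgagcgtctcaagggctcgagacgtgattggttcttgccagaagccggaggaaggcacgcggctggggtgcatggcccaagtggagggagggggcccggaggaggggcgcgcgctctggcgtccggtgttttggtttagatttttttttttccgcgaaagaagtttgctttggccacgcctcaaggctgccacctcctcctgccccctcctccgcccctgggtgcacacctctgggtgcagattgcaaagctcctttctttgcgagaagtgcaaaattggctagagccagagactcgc
Tef: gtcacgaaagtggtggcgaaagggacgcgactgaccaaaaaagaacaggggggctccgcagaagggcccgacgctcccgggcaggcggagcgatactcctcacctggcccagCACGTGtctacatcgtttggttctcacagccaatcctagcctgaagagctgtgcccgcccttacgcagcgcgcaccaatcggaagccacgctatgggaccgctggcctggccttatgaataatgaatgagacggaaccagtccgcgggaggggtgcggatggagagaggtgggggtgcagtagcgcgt
Per1: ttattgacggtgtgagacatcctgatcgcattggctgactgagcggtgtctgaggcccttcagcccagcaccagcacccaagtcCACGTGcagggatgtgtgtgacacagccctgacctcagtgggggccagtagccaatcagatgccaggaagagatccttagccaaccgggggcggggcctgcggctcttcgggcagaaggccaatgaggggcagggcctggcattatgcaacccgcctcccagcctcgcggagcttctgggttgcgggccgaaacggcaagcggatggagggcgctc
The absence of these letters from the Dbp window and from the second Per1 window says nothing of other positions.

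**Figure D2:**
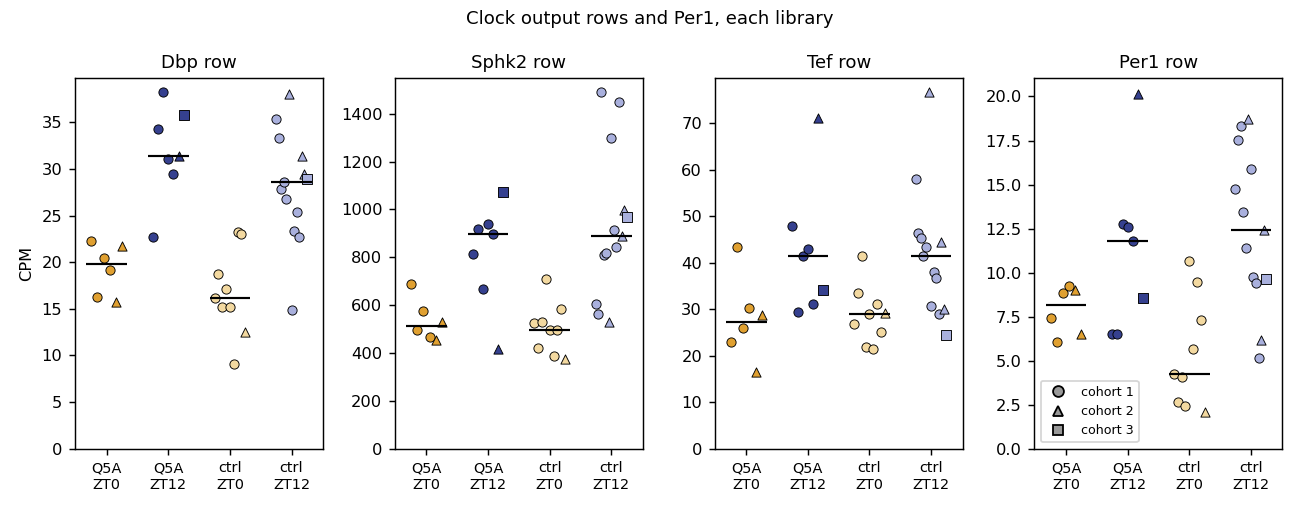
CPM of clock rows in each library (points, marker shape for cohort) of Q5A and control viruses at ZT0 and ZT12, with a bar at the median. Dbp in Q5A moves from a median of 19.8 to 31.3 CPM with no overlap, and Sphk2 from 513 to 896 with 1 low ZT12 library at 417.

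Of the 20 core clock genes, 12 had enough reads to be tested in Q5A, 0 were called, and their median change was 0.22, beside 0.05 for all rows tested. Without the pair of libraries that stood apart these medians were 0.13 and 0.00. Clock itself, the partner of BMAL1, changed by 0.31 (SE 0.21), and under the control viruses by 0.56 (SE 0.17, edgeR adjusted p = 0.111). Of 14 clock output genes 6 were tested, 0 were called and 2 (Dbp and Tef) had an unadjusted p under 0.05. Usp2, a ubiquitin protease driven by the clock, had a value of −0.57 (SE 0.31), or −0.34 without ZT0 cohort 2 replicate 1, beside −0.75 under the control viruses. Among rows opposite clock genes, Thra, a thyroid hormone receptor gene opposite Nr1d1, spanned 305 to 415 CPM at ZT0 and 354 to 507 at ZT12, a change of 0.24 (SE 0.16). Chid1, opposite Tspan4, stood at 0.39 (SE 0.22), or 0.24 without ZT12 cohort 3 replicate 1, and its groups overlapped.

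Over all 6 times the Q5A medians of the Dbp row were 19.8, 23.2, 25.7, 31.3, 26.7 and 17.7 CPM from ZT0 to ZT20 in steps of 4 h, with 6 or 7 libraries a time. A pair of Q5A libraries of ZT4 differed by less than the sampling noise and was counted as 1. The control medians of Dbp were 16.2, 19.5, 20.8, 28.6, 19.5 and 18.3 CPM. In both virus groups the highest of the 6 medians was at ZT12, and the ranges of neighbouring times overlapped.

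Hdc is the marker of the tissue, and its row was nearly empty. It has no opposite exon and held 1.08 to 21.6 CPM at ZT0 (median 4.38) and 0 to 11.6 CPM at ZT12 (median 0.841), which is 2 to 32 reads and 0 to 30 reads. In 2 of 7 ZT12 libraries no Hdc read was counted, and the row was too low for the edgeR filter. The ZT12 minus ZT0 difference in mean log2 CPM was −1.02 (exact permutation p = 0.170). In cohort 1 alone it was −1.82 (exact permutation p = 0.0476), and without ZT12 cohort 2 replicate 1, which held the 30 reads, it was −1.38 (exact permutation p = 0.0498). The control libraries held 0 to 7.05 CPM at ZT0 and 0.871 to 25.1 at ZT12. What part of the Hdc reads its row holds was not tested, so these few reads do not measure how histaminergic the cut tissue was. Fewer histamine neurons, less Hdc RNA per neuron and Hdc reads that the row does not hold cannot be told apart in these bulk samples. Slc18a2, the vesicular transporter that loads histamine into vesicles (opposite Gm29261), stood at 61.5 to 121 and 51.2 to 86.6 CPM, a change of −0.27 (SE 0.21), or −0.14 without ZT0 cohort 1 replicate 1. Of 13 histamine genes 4 were tested and 0 called, with a median change of −0.03, or −0.28 without the pair that stood apart.

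No histone gene and no gene of the amine marks was called over the 13 libraries. H3f3b, which encodes H3.3, had a mean of 14.2 CPM at ZT0 (SD 5.22, n = 6) and 19.2 at ZT12 (SD 9.65, n = 7) with overlapping groups, a change of 0.51 (SE 0.32, edgeR adjusted p = 0.743). Without ZT12 cohort 2 replicate 1, its highest library, the change of H3f3b was 0.29. H3f3a (opposite Gm17275 and H3f3aos), Tgm2 (opposite Gm20412 and Rprd1b) and Wdr5, a reader of histone H3, were under the filter, at no more than 9.29 CPM in any library. Tgm2 held 0.676 to 3.25 CPM at ZT0 (median 1.43) and 1.62 to 8.53 at ZT12 (median 5.04), with 1 ZT12 library inside the ZT0 range, and was not tested. Since rows are counted by gene name, they do not separate the viral transcript from the mouse's own. Of 24 genes for H3.3, its chaperones, H3K4 methyltransferases and demethylases and the amine marks, 17 were tested and 0 called, with a median of 0.18, or 0.04 without the pair that stood apart. Ash2l, a subunit of these methyltransferases, was at 0.49 (SE 0.29) and at 0.26 without ZT12 cohort 2 replicate 1.

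Cohort 1 alone, with 4 ZT0 and 5 ZT12 libraries, gave a different count. It called 83 of 9306 rows (0.892%) as higher and 15 rows (0.161%) as lower at ZT12, while 195 rows (2.1%) had all ZT12 above all ZT0 libraries and 200 rows (2.15%) had all ZT12 below. DESeq2 called 151 rows there, of which 88 were among the 98 of edgeR. The count rested on single libraries: without ZT0 replicate 2 it was 9, without ZT0 replicate 3 it was 11, without ZT12 replicate 5 it was 18 and without ZT12 replicate 1 it was 23. Without ZT12 replicate 2, 4 or 3 it was 43, 58 or 167, and without ZT0 replicate 1 or 4 it was 109 or 94. Only 7 rows were called in all 9 such fits: the myelin genes Mag and Mbp, Bcas1os2, Zmym1, RP23-454A14.10, RP24-176P19.3 and RP24-97K3.3. Library depth moved with time in cohort 1, at a difference of −224043 reads (exact permutation p = 0.0397). The share of reads in the 10 most-read rows of a library moved too, from a mean of 15.1% at ZT0 to 12.8% at ZT12 (exact permutation p = 0.0159). These are 2 of 4 library measures compared in cohort 1, with p not adjusted over them, and their part in the calls was not tested.

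The libraries outside cohort 1 are few, and their ZT12 members are the pair that stood apart. Of the 83 rows called higher, 24 (28.9%) had the same sign between the cohort 2 libraries, beside 57.1% of all rows, and 10 between ZT12 cohort 3 and ZT0 cohort 2, beside 46.7%. Of the 15 rows called lower, 9 had the same sign in cohort 2 and 5 between cohorts 3 and 2. Under the control viruses in cohort 1, 8 of the 80 higher rows tested and 5 of the 14 lower rows tested had the same sign, beside 47.6% of all rows. These are descriptions with 1 or 2 libraries a side for cohorts 2 and 3. Cohort 3 holds no ZT0 library of Q5A, so cohort and time cannot be told apart in its comparison.

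Oligodendrocyte markers were among the cohort 1 calls. Mbp, myelin basic protein, held 329, 294, 311 and 608 CPM in the 4 ZT0 libraries of cohort 1 and 1052, 907, 645, 1439 and 1202 CPM in the 5 of ZT12. Every cohort 1 library of ZT12 was above every one of ZT0, and the change was 1.46 (SE 0.22, edgeR adjusted p = 0.00619). The 2 ZT0 libraries of cohort 2, however, held 1104 and 1823 CPM, within and above the ZT12 range. With them and the other ZT12 libraries (1340 and 763 CPM) the change was 0.50 (SE 0.36, adjusted p = 0.743), and it was 0.99 without ZT0 cohort 2 replicate 2 alone.

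Mag, myelin-associated glycoprotein, gave the same picture, with 14.9, 17.6, 19.8 and 36.9 CPM at ZT0 of cohort 1 and 77.9, 67.8, 54.8, 91.0 and 79.9 at ZT12. The change was 1.74 (SE 0.23, edgeR adjusted p = 0.0025). The cohort 2 libraries of ZT0 held 79.7 and 110 CPM, and the change over 13 libraries was 0.63, or 1.11 without ZT0 cohort 2 replicate 2. Cldn11, the tight junction protein of myelin sheaths, held 8.86 to 13.9 CPM at ZT0 and 21.3 to 50.3 CPM at ZT12 of cohort 1 and changed by 1.63 (SE 0.29, edgeR adjusted p = 0.0168). Over 13 libraries Cldn11 stood at 0.87 (adjusted p = 0.724).

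Of the 13 oligodendrocyte markers 12 were tested in cohort 1, of which 6 were called higher (beside 0.892% of all rows) and 0 lower (0.161%), with a median of 1.05. By unadjusted p under 0.05 in edgeR, 9 of them were higher and 1 was lower at ZT12. Further called members were Mobp (1.26, edgeR adjusted p = 0.02) and Olig1 (0.84, adjusted p = 0.0364, opposite Gm15966), a transcription factor of the lineage. With each cohort 1 library left out in turn, Mobp was called in 5 and Olig1 in 2 of 9 fits. Over the 13 libraries 0 of the 12 were called and the median was 0.54, with Pdgfra, the receptor of oligodendrocyte precursors, at 0.97 (SE 0.35) and Olig2 at 0.57 (SE 0.29). The summed level of the list ran from 1210 to 1852 CPM at ZT0 and from 1828 to 3321 CPM at ZT12 in cohort 1, and none of its members was at 0 in every library. Mag, Mbp, Mobp and Olig1, and the rows in the next sentences, were named after their values were seen. Further called rows of cohort 1 were Mal (1.23), a raft protein of myelin, Ppp1r14a (1.88), Gsn (2.21), gelsolin, Apod (1.62), Car2 (0.98), carbonic anhydrase of glia, and Pmp22 (1.76), with edgeR adjusted p of 0.0169 to 0.0417. In the same 9 fits they were called 2, 7, 5, 2, 3 and 1 times, in the order named. Over the 13 libraries these rows stood at 0.74, 0.71, 1.02, 0.66, 0.40 and 0.92, in the same order. In cohort 1 Bcas1, a gene of newly formed oligodendrocytes, rose by 0.99 and its opposite rows Bcas1os1 and Bcas1os2 by 1.14 and 1.11. Over the 13 libraries these changes were 0.16, 0.06 and 0.01. The cohort 2 libraries of ZT0 held 1940 and 2216 CPM in the Bcas1os1 row, above all ZT12 libraries (450 to 1517). Galnt5, opposite the oligodendrocyte gene Ermn, rose by 1.08 in cohort 1 (edgeR adjusted p = 0.0247), beside 0.31 over the 13 libraries.

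**Figure D3:**
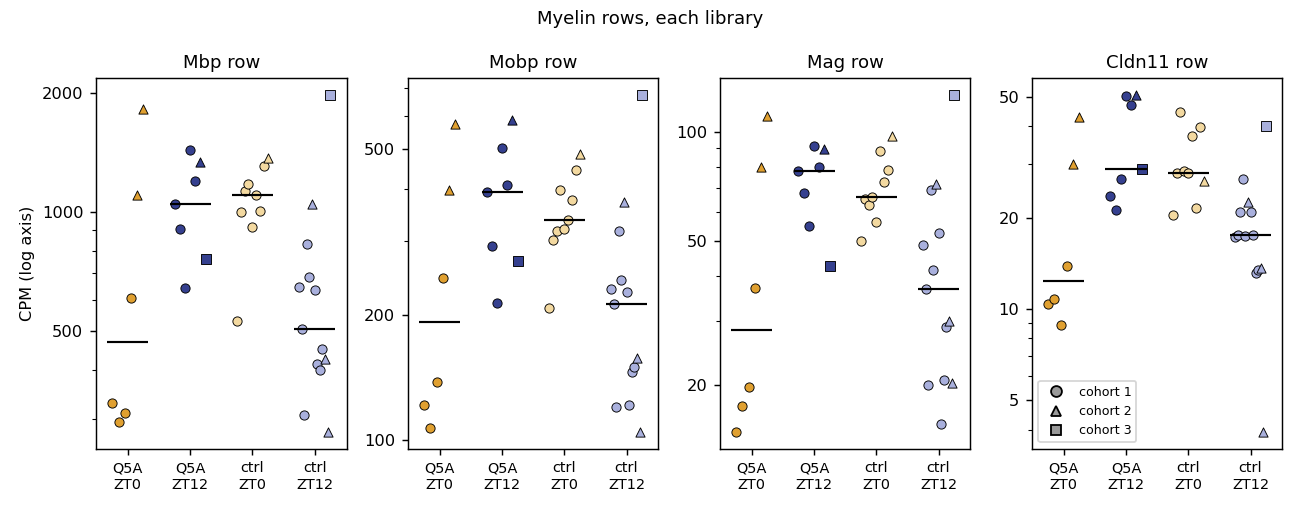
CPM (log axis) of the myelin rows in each library of Q5A and control viruses at ZT0 and ZT12, with marker shape for cohort and a bar at the median. In cohort 1 of Q5A, Mbp runs from 294 to 608 CPM at ZT0 and from 645 to 1439 at ZT12, and the 2 cohort 2 libraries at ZT0 lie at 1104 and 1823.

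Other called rows of cohort 1 were not of this list. Hcn2, a pacemaker channel, held 37.2 to 87.7 CPM at ZT0 and 91.5 to 127 at ZT12 and rose by 1.00 (SE 0.20, edgeR adjusted p = 0.0237). Over the 13 libraries the Hcn2 change was 0.25. Cplx1 and Cplx2, the complexins of synaptic vesicle release, rose by 1.00 and 0.73 (edgeR adjusted p of 0.0193 and 0.0191). Over the 13 libraries they stood at 0.03 and 0.42. Zmym1 fell by 1.01 (SE 0.12, adjusted p = 0.00141), the smallest of the cohort, and Cartpt, the CART neuropeptide gene, by 1.92 (SE 0.43, adjusted p = 0.0354). Cartpt held 6.69 to 31.8 CPM at ZT0 and 1.68 to 10.5 at ZT12 of cohort 1, while ZT12 cohort 3 held 32.4. Its change over the 13 libraries was −0.45, or 0.05 without ZT0 cohort 1 replicate 2. With each cohort 1 library left out in turn, Cartpt was called in 2 of 9 fits.

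Under the control viruses 20 of 9578 rows (0.209%) were called over the 22 libraries, 6 higher and 14 lower at ZT12. The count was 0 without H3.3 ZT0 cohort 2 replicate 1, 183 without H3.3 ZT12 cohort 1 replicate 1 and 287 without H3.3 ZT12 cohort 3 replicate 1. With the H3.3 libraries alone as the control it was 1, and with the GFP libraries alone 105. Of the 20 rows, 15 (75%) had the same sign in Q5A, beside 69.9% of the 9033 rows tested in both. In Q5A 1 of the 20 rows, Sphk2, had an unadjusted p under 0.05. Among those of smallest p were Cdan1 (−0.98, opposite Stard9), RP23-280F6.4 (−1.36), RP23-358M4.4 (−0.71), Arhgap26 (1.02) and Ikzf5 (−0.60, opposite Pstk), with edgeR adjusted p of 0.0118 to 0.0182. In Q5A the same rows stood at −0.01, −0.26, −0.29, 0.05 and −0.26, and without ZT12 cohort 2 replicate 1 at 0.03, −0.13, −0.20, −0.15 and −0.14. Of the 604 Q5A rows with unadjusted p under 0.05, 591 were tested under the control viruses and 479 (81.0%) had the same sign there, beside 69.9% of the 9033 rows tested in both. In GFP ZT12 cohort 2 replicate 1, 63.8% of placed reads fell in rows with an opposite exon, against 70.8% to 84.9% in the other control libraries. Its gene row share was 5.63%, and the control count without it was 19. A Q5A library of ZT12 cohort 2 stood apart in the same way, and sign agreement without these libraries was not tested.

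In cohort 1 the control viruses called 15 of 8549 rows (0.175%) higher and 54 rows (0.632%) lower, and 20 rows were called in both viruses (20.4% of the Q5A calls and 29.0% of the control calls). Of these 20, 19 had opposite signs in Q5A and the controls, and 1, Sphk2, had the same sign. There Mbp fell by 0.91 (SE 0.19, edgeR adjusted p = 0.0205) and Mobp by 0.78 (SE 0.19, adjusted p = 0.0495) from ZT0 to ZT12. The summed level of the oligodendrocyte list was 1724 to 3102 CPM at ZT0 and 1321 to 2230 at ZT12 in these libraries. The medians were 2674 and 1603 CPM in controls, and 1274 and 2605 CPM in Q5A cohort 1.

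The difference between the Q5A and control changes was tested as an interaction. Over all 35 libraries 0 of 11327 rows (0%) were called, with 469 rows at an unadjusted p under 0.05, and DESeq2 also called 0. Of 13 oligodendrocyte markers 9 had an unadjusted p under 0.05, all with a more positive change in Q5A, and the list median was 1.07, beside −0.02 for all rows. The rows of smallest p were Pet100 (3.52, opposite Pcp2), Ighg2c (6.14), an immunoglobulin gene, Prr18 (1.05), Cldn11 (1.54), Mal (1.34) and Sun3 (−2.78, opposite Gm11992), each at an edgeR adjusted p of 0.9997. Pet100 and Ighg2c were under the filter of the Q5A comparison, with 0 to 22.3 and 0 to 57.0 CPM over the 13 libraries.

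In cohort 1 the interaction called 151 of 11014 rows (1.37%) with a more positive change in Q5A and 33 rows (0.3%) with a more negative change. Mbp differed by 2.42 (SE 0.33, edgeR adjusted p = 0.000303), Mag by 2.62 (SE 0.39, adjusted p = 0.000387) and Cldn11 by 2.40 (SE 0.35, adjusted p = 0.000387). Of the oligodendrocyte markers 8 of 13 were called, all in this direction, with a median of 1.73. Hdc differed by −4.16 (SE 1.09, adjusted p = 0.0364) on the few reads given above.

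**Figure D4:**
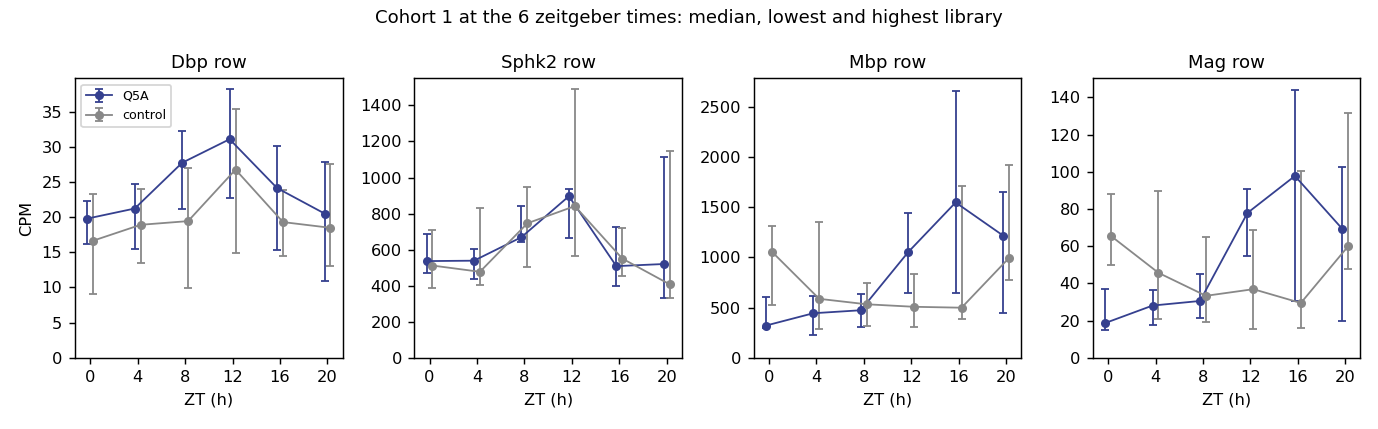
Cohort 1 CPM at the 6 zeitgeber times for Q5A and control viruses, each point the median library and each bar the lowest to highest. Median Mbp in Q5A goes from 320 at ZT0 to 1052 at ZT12 and 1546 at ZT16, and in controls from 1057 at ZT0 to 508 at ZT12.

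Over the 6 times in cohort 1, the Mbp medians of Q5A were 320, 443, 473, 1052, 1546 and 1216 CPM, and those of the control viruses 1057, 587, 533, 508, 498 and 994 CPM. With 4 or 5 Q5A libraries a time, the range at ZT16 was 644 to 2659 CPM and held the whole range of ZT12. Only the ZT0 and ZT12 points were tested here.

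The remaining lists held no called row over the 13 libraries. Of 16 glucocorticoid-responsive genes 7 were tested, with a median of 0.56 beside 0.51 under the control viruses, and 0.38 in Q5A without the pair that stood apart. Mt2, a metallothionein opposite Gm45774, stood at 7.50 to 11.9 CPM at ZT0 and 9.81 to 27.5 at ZT12, a change of 0.86 (SE 0.29, edgeR adjusted p = 0.724) beside 0.98 in controls. Klf9, a glucocorticoid-driven transcription factor, was at 0.56 (SE 0.27), and Mt1 at 0.57 (SE 0.28). Sgk1, the serum and glucocorticoid kinase, was under the filter and is named after its values were seen: it held 0 to 4.06 CPM at ZT0 (median 1.43) and 2.55 to 27.9 at ZT12 (median 10.9), with 1 ZT12 library inside the ZT0 range.

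All 11 astrocyte markers were tested and had positive changes, 0 were called, and their median was 0.43 in Q5A and −0.02 in controls. Without the pair that stood apart it was 0.18 in Q5A, with 10 of 11 positive. Gfap, the astrocyte filament, spanned 12.5 to 55.6 CPM at ZT0 (median 21.4) and 15.9 to 211 at ZT12 (median 42.2), a change of 1.36 (SE 0.46, edgeR adjusted p = 0.724). The highest Gfap value was in ZT12 cohort 1 replicate 4, without which the change was 0.66, and the groups overlapped. The summed astrocyte list was 443 to 675 CPM at ZT0 and 495 to 1501 CPM at ZT12, with the highest sum in ZT12 cohort 2 replicate 1. Of 10 microglia, 13 vascular and 9 ependymal markers 5, 2 and 2 were tested, with the microglial receptor gene Cx3cr1 (opposite Gm33858) at 0.31, the pericyte gene Rgs5 at 0.68 and Enpp2 (opposite Gm26684) at 0.89. Without ZT12 cohort 2 replicate 1, Cx3cr1 was at 0.13 and Enpp2 at 0.45.

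All 13 neuronal markers were tested, with a median of 0.15, or −0.07 without the pair that stood apart. Nefm, whose row lies opposite Nefl, had a value of −0.52 (SE 0.31) over 13 libraries and 0.28 in cohort 1, where the cohort 2 libraries of ZT0 (8726 and 12202 CPM) are left out. Of 20 hypothalamic neuropeptide genes 9 were tested, with a median of 0.33 in Q5A (0.04 without the pair that stood apart) and 1.42 in controls. The summed level of this list was 936 CPM in GFP ZT12 cohort 2 replicate 1 and 78.4 to 452 in the other control ZT12 libraries. The control median without that library was not computed. The Parpbp row, opposite Pmch, ran from 41.8 to 43466 CPM at ZT0 and from 244 to 49924 CPM at ZT12, a spread within each group far wider than the change of −0.35 (SE 0.91). Of 12 striatal markers 6 were tested, with a median of 0.36 in Q5A (0.11 without the pair that stood apart) and 1.33 in controls. The summed striatal list was 1092 and 1231 CPM in GFP ZT12 cohort 1 replicate 3 and H3.3 ZT12 cohort 1 replicate 1. It was 110 to 273 CPM in the other control ZT12 libraries and 124 to 191 at control ZT0. The control median without those libraries was not computed. In Q5A Pde10a stood at 0.39 (SE 0.33), or 0.16 without ZT12 cohort 2 replicate 1. Of 10 pituitary genes 2 were tested, with Tshb at −0.21, or −0.09 without the same Q5A library.

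In the lists of broadly expressed genes 0 rows were called over the 13 libraries. Of 68 nuclear genes for oxidative phosphorylation 49 were tested, 8 had an unadjusted p under 0.05, all higher at ZT12, and the median was 0.41. Over all rows tested, 3.99% were higher and 2.54% lower at that p. Ndufb10 and Cox4i1 (opposite Emc8), subunits of complexes I and IV, were at 0.77 and 0.63. Of 79 ribosomal protein genes 37 were tested, 11 had an unadjusted p under 0.05, all higher, and the median was 0.38, with Rpl14 at 0.95 and Rpl7 at 1.05. Without the pair of libraries that stood apart, 2 of 48 and 1 of 36 rows of these lists had an unadjusted p under 0.05, and the medians were 0.10 and 0.23, with Cox4i1 at 0.34, Rpl14 at 0.58 and Rpl7 at 0.63. The summed level of the oxidative phosphorylation list was 3111 CPM in ZT12 cohort 2 replicate 1 and 1623 to 1872 in the other ZT12 libraries. The 2 highest sums of the ribosomal list, 2164 and 1919 CPM, were in ZT12 cohort 3 replicate 1 and cohort 2 replicate 1. The medians were 0.22 and 0.19 in cohort 1, and 0.23 and 0.21 under the control viruses. Of 35 ion channel genes 31 were tested, with a median of 0.18, or −0.04 without the pair that stood apart. Of 32 GABA and glutamate receptor genes 24 were tested, with a median of 0.23, or 0.00 without that pair, and the AMPA receptor genes Gria4 and Gria1 at 0.81 and 0.63. Gria4 was at 0.40 without ZT12 cohort 2 replicate 1, where the summed level of the receptor list was 1579 CPM against 678 to 840 in the other ZT12 libraries. Gabra4 (opposite Gabrb1) was at −1.19, or −0.61 without ZT0 cohort 2 replicate 1. The temperature-responsive list (12 of 17 tested) had a median of −0.01, or −0.18 without the pair that stood apart, with Srsf5 at 0.72 (0.17 without ZT12 cohort 2 replicate 1), and the immediate early list (5 of 22 tested) a median of 0.00. Of 15 mitochondrially encoded and 6 sex-linked genes 0 were tested.

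**Figure D5:**
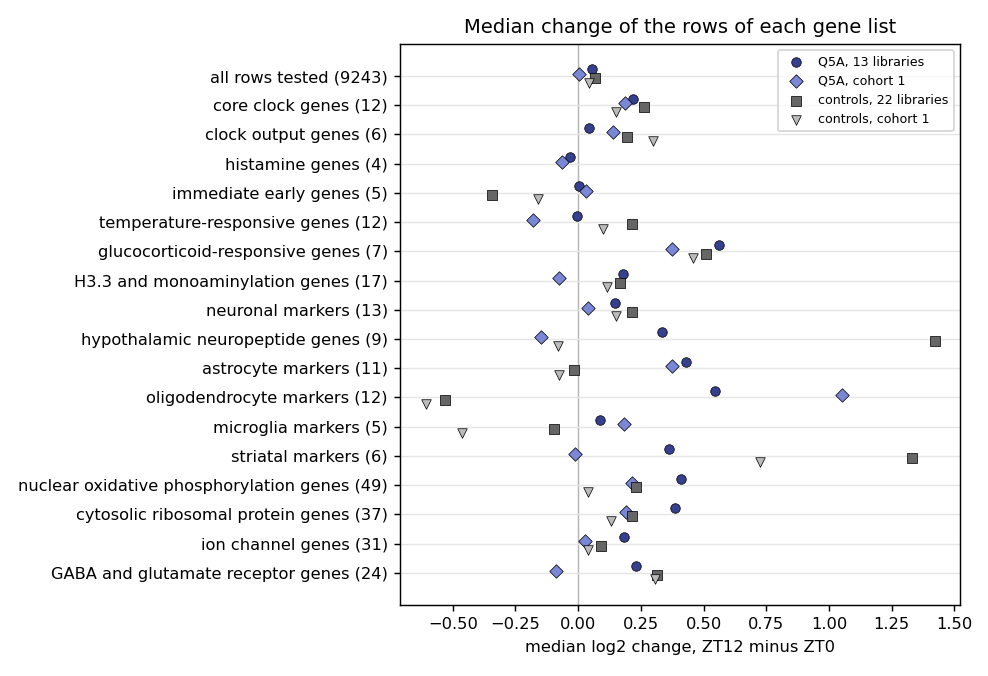
Median log2 change (ZT12 minus ZT0) of the tested rows of each gene list in Q5A and control viruses, over all libraries and in cohort 1. The oligodendrocyte list lies at 0.54 and 1.05 in Q5A and at −0.53 and −0.61 in controls.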

How the data were processed

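RNA was sequenced from GFP-lit TMN tissue of single mice with a stranded polyA kit. Per the labels and methods, the authors aligned the reads to GRCm38 with STAR 2.7.11b and counted them with HTSeq 2.0.5 on Ensembl v93 exons by gene name, with the strand option set to yes. The deposited unit is the raw read count per gene row, with no normalization, in 111 tables of 54087 rows and 5 summary rows, which were left out here. A further 18 files without a sample were not used. Groups came from the labels, and p-values measure the spread between mice.

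Counts were filtered with filterByExpr (minimum count 10, total 15), scaled by TMM and tested with edgeR 4.0.16 quasi-likelihood tests in R 4.3.3, with Benjamini-Hochberg adjustment. Dbp and Hdc were also tested with exact permutation of libraries on log2 CPM (prior count 2). Alternatives were DESeq2 1.42.0, other scalings and filters, cohort terms, replicate blocks, other library sets and leaving out each library. No pair among the 36 within-group pairs of Q5A ZT0 and ZT12 libraries differed by less than sampling noise. Rows were placed by name on GENCODE M21 (28418 of 54087 matched, with 64.8% of the Q5A reads). The libraries and gene lists were chosen with earlier results of these data known. Named are the 10 rows of smallest p in each direction, Dbp, Hdc, H3f3a, H3f3b, Tgm2 and Wdr5, up to 4 members of each list, the 6 rows of smallest p in the control and interaction tests, rows opposite clock genes and the 3 rows of most reads (Parpbp, Gm20721 and Rn18s-rs5). Some rows that this rule names are not reported here. Rows chosen after their values were seen are said to be so.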

Additional observations from a re-analysis of the deposited data

Results flagged for a closer look

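In each of 50 sets of 6 or 7 Q5A libraries, the gap of the highest or lowest library to its neighbour was divided by the range of the set, and 8 sets passed Dixon's 95% value, which chance alone would do in about 1 in 20. ZT12 cohort 2 replicate 1 was the library in 4 of them. It had a gene row share of 5.39% against 3.70% to 4.28% in the other ZT12 libraries (ratio 0.653), 61.2% of placed reads in rows with an opposite exon (ratio 0.707), the lowest Zmym1 value (119 CPM, ratio 0.622) and the highest Hdc value of ZT12 (11.6 CPM, ratio 0.618). The others were Parpbp in ZT12 cohort 3 replicate 1 (49924 CPM, ratio 0.631), Gfap in ZT12 cohort 1 replicate 4 (211 CPM, ratio 0.741) and in ZT0 cohort 2 replicate 1 (55.6 CPM, ratio 0.721), and Mt2 in ZT0 cohort 1 replicate 4 (11.9 CPM, ratio 0.674).

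In cohort 1 the change from ZT0 to ZT12 differed between Q5A and the control viruses in 184 rows by edgeR's interaction test at an adjusted p under 0.05, and over all 35 libraries in 0. Among the rows described above, the differences of the log2 changes in cohort 1 were 2.416 for Mbp, 2.616 for Mag, 2.405 for Cldn11 and −4.165 for Hdc. Cohort 1 has 4 and 5 Q5A libraries and 8 and 9 control libraries at ZT0 and ZT12.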

How the results depend on the processing

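The count of 0 rows in Q5A stayed 0 with size factors, a cohort term, the replicate block, robust fitting and without the 2 libraries that stood apart. It became 2 with DESeq2, 65 with no filter, 98 in cohort 1 alone, 1 with all Q5A times or all 18 groups in the fit, and 0 to 2 when each library was left out (2 without ZT0 cohort 2 replicate 2). In cohort 1 it became 151 with DESeq2 and, with each library left out, 109, 9, 11 and 94 (ZT0 replicates 1 to 4) and 23, 43, 167, 58 and 18 (ZT12 replicates 1 to 5). The control count of 20 became 158 with DESeq2, 116 with no filter, 286 with a cohort term, 69 in cohort 1, 142 with the block, 1 with H3.3 alone, 105 with GFP alone, 0 at an adjusted p under 0.01 and 0 to 287 with each library left out (the libraries are named above). The interaction count of 0 became 1 with no filter, 184 in cohort 1 (210 with DESeq2) and 12 with the block.

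The replicate numbers did not pair the libraries: deviations of same-numbered libraries correlated at −0.198 to 0.164. Under the replicate block 0 rows were called in Q5A, 142 in controls and 12 in the interaction.

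The lower depth at ZT12 (−251907 reads) was −224043 in cohort 1 and −353075 to −156448 with each library left out, past the threshold in cohort 1 and without ZT12 cohort 2 replicate 1. Hdc was −1.82 in cohort 1 and −1.38 to −0.63 with each library left out. Nefm turned to 0.28 in cohort 1, and Parpbp ran from −1.12 to 0.079 with each library left out, the last without ZT0 cohort 1 replicate 3. The cohort 1 value of Galnt6os turned to −0.10 over all 13 libraries. The cause was not tested. The direction of 101 named values was followed, each through the alternatives of its own fit, and 98 kept it. For a cohort 1 value these were the other cohort 1 fits and the fit of all 13 libraries. Q5A values outside this set turned too. Without ZT12 cohort 2 replicate 1, Cdan1 went from −0.01 to 0.03, Arhgap26 from 0.05 to −0.15 and Cplx1 from 0.03 to −0.14. Cartpt went from −0.45 to 0.05 without ZT0 cohort 1 replicate 2, and RP23-280F6.4 from −0.26 to 0.16 without ZT0 cohort 2 replicate 1. The Hdc row held at most 32 reads in a library, which limits its precision.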
